A study of Mus musculus with 21 samples.

Results

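The core clock loop genes described here are Clock, Arntl, Npas2, Per1, Per2, Per3, Cry1, Cry2, Rora and Rorb. They were chosen by symbol, and all 10 were found among the 35266 genes of the count and TPM tables. Each of the 21 libraries came from fluorescent neurons of the hypothalamic arcuate nucleus that were picked manually from 1 male mouse on the C57BL/6J background. AGRP neurons carried the NPY-hrGFP transgene and were taken from 5 fed mice of 46 to 55 days and 6 food-deprived (FD) mice of 47 to 55 days. POMC neurons carried Pomc-GFP and were taken from 5 fed mice of 51 to 56 days and 5 FD mice of 54 to 56 days. FD mice had water but no food for 24 h, and fed mice were moved to a new cage at the same time and kept their food. The fluorescent protein follows the Npy or the Pomc promoter, so every library holds the cells in which that promoter was active. All mice were killed around midday, so each mouse gives a single point of the daily cycle, and a shift of phase and a change of mean level cannot be told apart.

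The molecular clock is a loop of transcription and repression that runs with a period of about a day. The proteins CLOCK or NPAS2 pair with ARNTL (also called BMAL1) on E-box sequences and switch on the Period (Per) and Cryptochrome (Cry) genes, whose proteins return to the nucleus and repress that pair. In a second arm, the receptors RORA and RORB activate Arntl through ROR elements, where the REV-ERB proteins (Nr1d1, Nr1d2) repress it. In another arm, the factors DBP, TEF and HLF activate genes through D-box sequences and NFIL3 represses them. The main pacemaker of mammals lies in the suprachiasmatic nucleus and follows light, while clocks elsewhere in the brain and body also follow the time of feeding.

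Depth lay between 9822298 and 37663979 gene counts per library, and the lowest count of any of the 10 genes in any library was 22. All 10 passed the filter on low counts (a CPM over 1 in at least 3 libraries, CPM being counts scaled to the depth of the library), which kept 16513 genes. Normalized CPM here means CPM after TMM scaling, which sets the bulk of genes level between libraries. The labelled cell types held: Agrp lay between 470 and 6382 normalized CPM in AGRP libraries and between 1.52 and 17.0 in POMC libraries, and Pomc between 2184 and 8196 in POMC libraries and between 2.70 and 24.0 in AGRP libraries. The summed level of 24 markers of astrocytes, oligodendrocytes, microglia, endothelial cells, tanycytes and suprachiasmatic nucleus neurons was 51.4 to 71.4 TPM in fed and 48.3 to 89.4 in FD AGRP libraries, and 48.7 to 62.3 in fed and 38.2 to 90.1 in FD POMC libraries. Of the 16 of these markers that could be tested, 2 were called at an adjusted p under 0.05 in AGRP neurons, both higher in FD mice. In POMC neurons 0 were called. Of all genes, 10.3% were called in AGRP and 0.375% in POMC neurons. The 2 called were Aldh1l1, an astrocyte marker (0 to 0.045 TPM fed, 0.217 to 5.15 FD), and Vip, a peptide of suprachiasmatic nucleus neurons (0 in every fed library, 0.413 to 13.8 TPM in FD libraries). Among the other astrocyte markers, mean TPM in fed and FD AGRP libraries was 1.64 and 1.03 for Gfap, 0.885 and 0.518 for Aqp4, and 2.14 and 2.32 for Slc1a3. Among the other suprachiasmatic markers it was 7.25 and 8.32 for Grp, 2.07 and 2.81 for Prok2, and 0.059 and 0.243 for Lhx1. Nms was 0 in every AGRP library. The part of Aldh1l1 and Vip in the results below was not tested. Fewer cells of a type and less RNA per cell cannot be told apart in such libraries.

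Food deprivation changed the core clock genes of AGRP neurons unevenly. Per3 fell, Per1 and Rorb rose, and 7 of the 10 genes did not pass the test. Those 3 calls stand beside 10.3% of all 16513 genes called in the same comparison (an adjusted p under 0.05 by edgeR's quasi-likelihood test). Genes called lower made up 4.43% of all genes and genes called higher 5.87%. The median log2 fold change of the 10 genes was 0.15, against -0.02 over all genes, and the median size of the change without its sign was 0.37 against 0.51. In POMC neurons 0 of the 10 genes passed, with edgeR, limma-voom or DESeq2, which called 0.375%, 0.442% and 2.37% of all genes. At an unadjusted p under 0.05 there were 4 of 10 (Per3, Rora, Cry2 and Arntl), against 12.2% of all genes. The plot of the 10 genes by library shows these values.

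**Figure D1:**
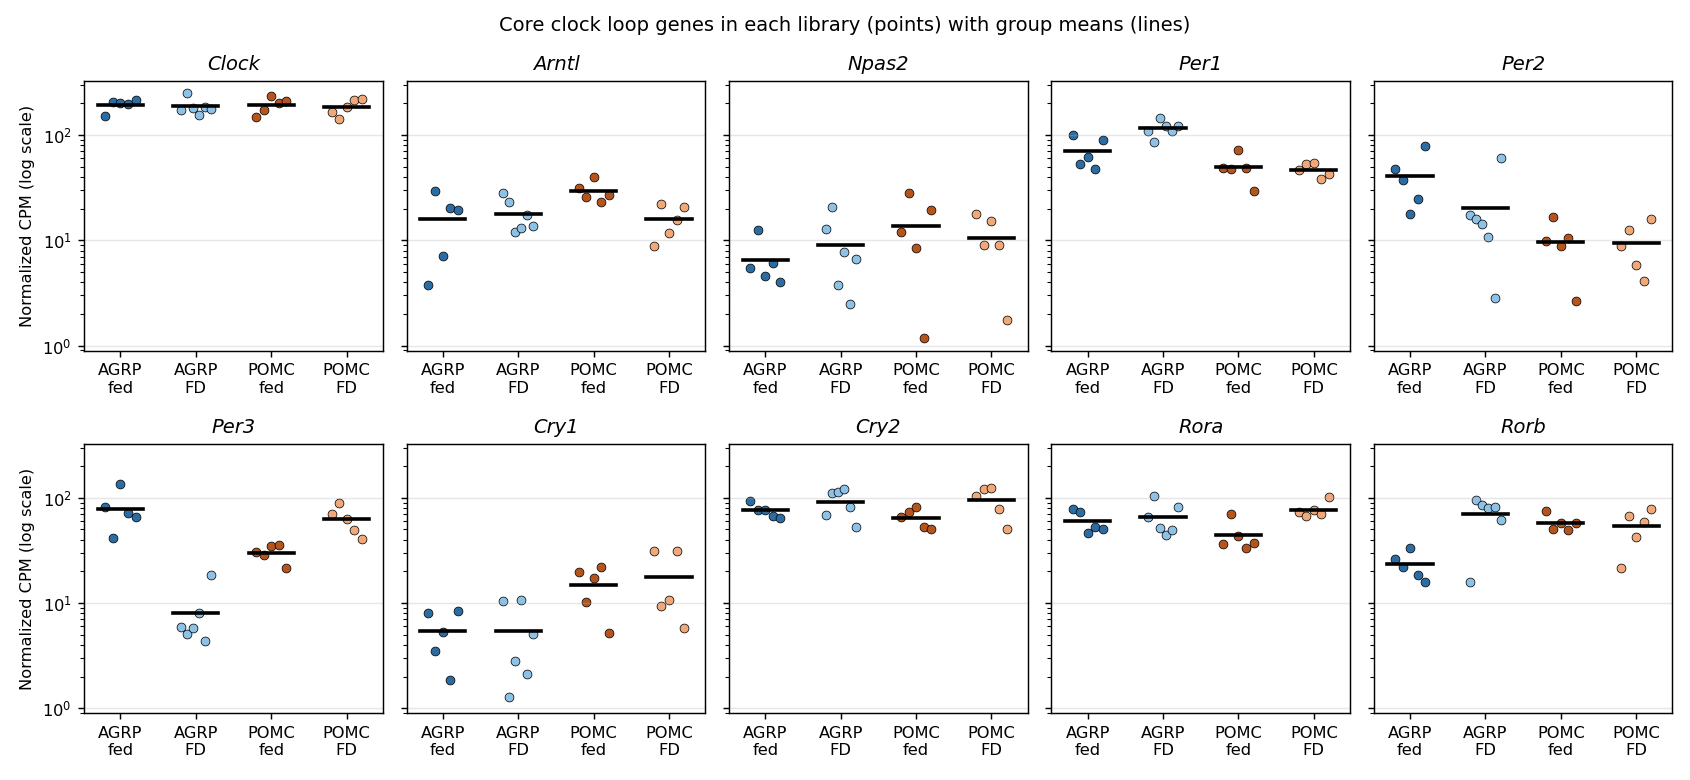
Normalized CPM (log axis) of the 10 core clock genes in each of the 21 libraries (points), by group, with the group mean as a line. In Per3, the FD AGRP libraries lie between 4.35 and 18.6 and the fed ones between 41.1 and 135, while Clock lies between 142 and 249 in every library.

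The 3 Period genes encode the repressors that the loop turns over each day, and they did not move together in AGRP neurons. Per3 (ENSMUSG00000028957; mm10 chr4:151003652-151044665) carried by far the largest difference of the 10 genes. Its levels in the 5 fed AGRP libraries were 81.0, 41.1, 135, 72.4 and 65.6 normalized CPM. In the 6 FD libraries they ran from 4.35 through a median of 5.85 to 18.6. The groups did not overlap, as was so for 7.65% of all genes, and for Per3 alone of these 10. Per3 was 9.94-fold lower in FD AGRP neurons, a log2 fold change of -3.31 (SE 0.35, adjusted p = 1.13e-07). It passed in each of the 11 fits without 1 library (-3.75 to -3.03) and in the 11 other alternatives tried, among them the fits within mice of 46 to 47 days (-3.62, adjusted p = 5.83e-05) and of 51 to 55 days (-3.06, adjusted p = 6.26e-05).

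In POMC neurons Per3 had the opposite sign. Fed libraries held 30.4, 28.4, 34.5, 35.4 and 21.3 normalized CPM and FD libraries 70.8, 88.5, 62.4, 49.7 and 40.5. Every FD library lay above every fed one, as was so in either direction for 2.35% of all genes, but the log2 fold change of 1.06 (SE 0.34) had an adjusted p of 0.163. The change in AGRP neurons less that in POMC neurons was -4.37 (SE 0.49, adjusted p = 8.6e-07), in a test of the difference in which 6.71% of all genes were called. The same libraries compared by cell type put Per3 higher in AGRP than in POMC neurons of fed mice (log2 fold change 1.40, SE 0.35, adjusted p = 0.00824) and lower in FD mice (-2.97, SE 0.34, adjusted p = 1.18e-07). Genes called in these comparisons made up 7.57% of all genes in fed and 18.6% in FD mice. The fed difference was 1.12 (adjusted p = 0.0552) without AGRP fed replicate 3, which holds the highest Per3 level. Ordered by mean, Per3 stood at 79.0 normalized CPM in fed AGRP neurons, 62.4 in FD POMC, 30.0 in fed POMC and 7.98 in FD AGRP neurons. The first pair of that order overlapped, and the other neighbours did not.

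Per1 (ENSMUSG00000020893; mm10 chr11:69095217-69109960), a Period gene that also responds to acute signals in many cells, moved the other way in AGRP neurons. Fed libraries held 101, 53.5, 62.4, 47.6 and 89.7 normalized CPM, and the 6 FD libraries ran from 86.8 through a median of 116 to 145. The groups overlapped, in 2 of the fed libraries. Per1 was 1.64-fold higher in FD AGRP neurons (log2 fold change 0.71, SE 0.22, adjusted p = 0.0386). The size of this change hardly varied between fits, but the call was lost without any 1 of 7 libraries (fed replicates 2, 3 and 4 and FD replicates 3, 4, 5 and 6; log2 fold change 0.60 to 0.72, adjusted p = 0.0543 to 0.126), with the replicate number as a block, which leaves out FD replicate 6 (0.70, adjusted p = 0.0697), and within mice of 46 to 47 days (0.73, adjusted p = 0.355) and of 51 to 55 days (0.71, adjusted p = 0.193). In POMC neurons Per1 gave -0.06 (95% interval -0.54 to 0.41), with 48.5, 48.0, 71.5, 48.4 and 29.6 normalized CPM fed and 47.0, 53.1, 54.2, 38.1 and 42.9 FD. The difference between the changes, 0.77 (SE 0.32), had an adjusted p of 0.159. In FD mice Per1 was 2.46-fold higher in AGRP than in POMC neurons (log2 fold change 1.30, SE 0.23, adjusted p = 8.84e-05) with no overlap, which held for 11.4% of all genes in that comparison. In fed mice the same difference was 0.52 (SE 0.23, adjusted p = 0.2).

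Per2 (ENSMUSG00000055866; mm10 chr1:91415982-91459324), the Period gene on which much of the daily repression rests, did not pass in AGRP neurons, and the call turned on 1 library and on the test used. Fed libraries held 47.7, 37.8, 17.7, 25.0 and 78.1 normalized CPM. FD replicates 1 to 5 held 17.4, 15.9, 14.3, 10.8 and 2.84, each below every fed library, and FD replicate 6 held 61.1. The log2 fold change was -1.02 (SE 0.53, adjusted p = 0.257). With all libraries it passed with limma-voom (-1.54, adjusted p = 0.0205). Without FD replicate 6 it was -1.75 (adjusted p = 0.0222). The replicate block (-1.68, adjusted p = 0.0419) also leaves that library out of the estimate, since no other library carries the number 6. The same library held the highest FD level of Per2, Per3, Nr1d1, Dbp, Tef and Bhlhe41, but not of Nr1d2, Hlf, Bhlhe40 and Ciart. These 10 are the Period and output genes with negative log2 fold changes in AGRP neurons, a choice made after their values were seen. In POMC neurons Per2 was low in both states, at 2.67 to 16.7 normalized CPM fed and 4.13 to 16.0 FD (log2 fold change -0.04, 95% interval -1.17 to 1.09). Fed AGRP neurons held 4.23-fold more Per2 than fed POMC neurons (log2 fold change 2.08, SE 0.57, adjusted p = 0.0201), with no overlap, as was so for 8.93% of all genes in that comparison. That call was lost with sorted cell number as a covariate (1.68, adjusted p = 0.0913) and with scaling by spike-in RNA (2.32, adjusted p = 0.236). It was also lost without AGRP fed replicate 5 (1.72, adjusted p = 0.087) or POMC fed replicate 5 (1.84, adjusted p = 0.0528).

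**Figure D2:**
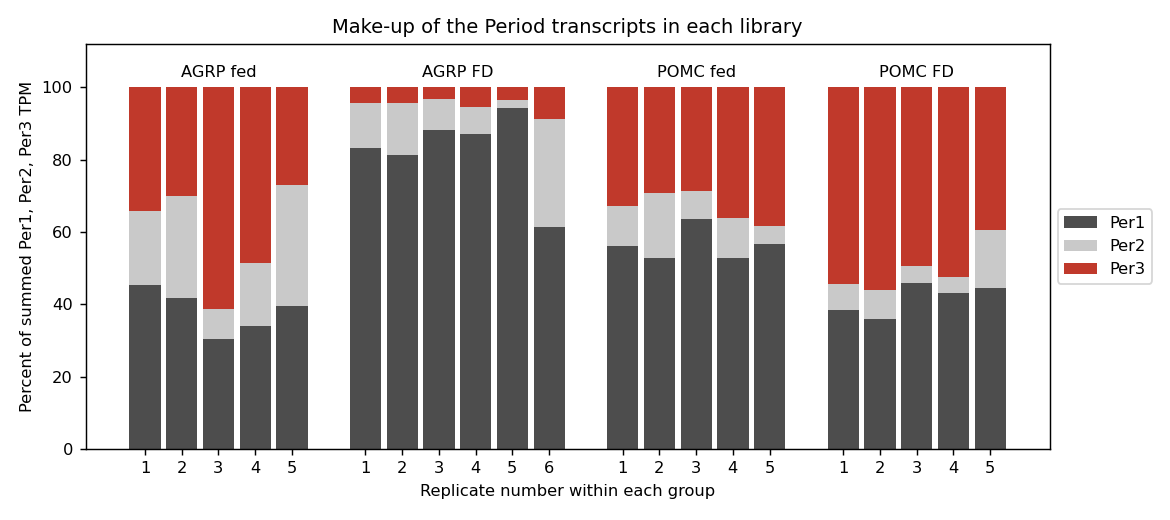
Per1, Per2 and Per3 as a percent of their summed TPM in each of the 21 libraries (1 bar each), by group and replicate number. Per3 makes up 27.1% to 61.4% in fed and 3.29% to 8.82% in FD AGRP libraries, and Per1 30.3% to 45.2% and 61.4% to 94.2%.

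The make-up of the Period transcripts shows the level of Per3 against that of Per1 and Per2 within single libraries, free of the scaling between them. The 3 shares add up to the whole, so the share of Per1 moves with Per2 and Per3 and does not show a rise or fall of Per1 itself. TPM divides counts by exon length before scaling each library to a common total, and so allows levels of different genes to be compared. Per3 held 40.3% ± 14.4 (SD, n = 5) of the summed Period TPM in fed and 4.95% ± 2.05 (n = 6) in FD AGRP neurons, and Per1 38.2% ± 5.98 and 82.6% ± 11.3. In POMC neurons Per3 held 33.1% ± 4.18 (n = 5) in fed and 50.4% ± 6.58 (n = 5) in FD mice, and Per1 56.4% ± 4.39 and 41.5% ± 4.20. The log2 ratio of Per1 to Per3 (TPM plus 1) was -0.02 ± 0.69 in fed and 3.76 ± 0.60 in FD AGRP neurons, and 0.74 ± 0.24 and -0.27 ± 0.31 in POMC neurons. The ranges of fed and FD libraries did not overlap in either cell type, and the direction was opposite. These shares were chosen after the levels had been seen, and they carry no test.

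The start regions of Per3 and Per1 are shown because these 2 genes moved in opposite directions in the same cells. Each run gives the 250 bases before a RefSeq start site (GRCm38.p6, the assembly of mm10), read 5′ to 3′ on the strand of the gene, with motif matches in capitals. Windows of 300 bases (250 before and 50 after the start) were searched on both strands for the E-box CACGTG, its variant CACGTT, the CRE TGACGTCA, the D-boxes TTATGTAA and TTACGTAA, the ROR motif AGGTCA and the glucocorticoid site. Promoter entries matched 9 of the 10 genes, and Per2 was not among them.
Per3, chr4:151044666-151044915, minus strand: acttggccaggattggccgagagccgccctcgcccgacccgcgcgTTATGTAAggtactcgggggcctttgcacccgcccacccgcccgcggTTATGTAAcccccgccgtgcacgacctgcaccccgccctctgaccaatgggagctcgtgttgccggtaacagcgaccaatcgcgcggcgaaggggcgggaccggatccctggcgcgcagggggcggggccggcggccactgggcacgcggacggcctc
Per1, first window, chr11:69098699-69098948, plus strand: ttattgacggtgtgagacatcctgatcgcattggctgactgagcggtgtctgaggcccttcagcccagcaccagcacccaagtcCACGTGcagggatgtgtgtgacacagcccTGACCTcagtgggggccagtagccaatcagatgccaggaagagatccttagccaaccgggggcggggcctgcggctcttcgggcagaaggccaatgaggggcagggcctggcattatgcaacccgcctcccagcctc
The Per3 window held 2 copies of the D-box TTATGTAA, 205 and 158 bases before the start, and none of the other motifs. That D-box stood in 308 of 32851 promoter windows (0.938%). The first Per1 window held the E-box 166 bases before the start, which 7.15% of windows have, and the ROR motif, on the other strand, at 137 bases, which 16.3% have. The second Per1 window held none. No window of the 9 genes held the CRE (1.79% of all windows) or the glucocorticoid site (0.475%). A match describes letters only, and these windows leave out more distant elements.

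The Cryptochromes, which join the Period proteins in repressing CLOCK and ARNTL, did not pass the test with food deprivation in either cell type. Cry1 (ENSMUSG00000020038) was at 8.10, 3.47, 5.36, 1.85 and 8.47 normalized CPM in fed AGRP libraries and ran from 1.27 through a median of 3.93 to 10.6 in FD ones. These ranges almost coincided, but the log2 fold change of -0.02 had a wide 95% interval of -1.20 to 1.16. POMC neurons held more, at 19.6, 10.3, 17.1, 22.0 and 5.24 normalized CPM fed and 31.1, 9.31, 10.7, 30.9 and 5.73 FD. In FD mice Cry1 was 3.25-fold lower in AGRP than in POMC neurons (log2 fold change -1.70, SE 0.58, adjusted p = 0.0376). In fed mice the difference was -1.45 (SE 0.61, adjusted p = 0.172). The call in FD mice was lost with limma-voom (-1.61, adjusted p = 0.0698), in the fit of those groups alone (-1.72, adjusted p = 0.0606), with age cohort as a block (-1.60, adjusted p = 0.109), and without any 1 of 6 libraries (AGRP FD replicates 2, 3, 5 and 6 and POMC FD replicates 1 and 4; -1.69 to -1.39, adjusted p = 0.0593 to 0.124). Scaling by spike-in RNA also lost the call in FD mice (-0.57, adjusted p = 0.679). Cry1 is shown because it was the gene with 2 kinds of E-box letters before its start.
Cry1, chr10:85185055-85185304, minus strand: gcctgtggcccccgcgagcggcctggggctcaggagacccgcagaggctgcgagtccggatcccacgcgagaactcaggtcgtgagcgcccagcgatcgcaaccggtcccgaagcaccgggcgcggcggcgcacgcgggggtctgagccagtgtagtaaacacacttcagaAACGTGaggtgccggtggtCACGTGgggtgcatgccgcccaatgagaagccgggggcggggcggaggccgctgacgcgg
The E-box stood 60 bases and the variant 79 bases before the start, and 4.68% of all windows hold the variant.

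Cry2 (ENSMUSG00000068742) was several times more abundant than Cry1 in every group. Its mean was 61.4 TPM ± 11.0 (SD) in fed and 61.4 ± 14.9 in FD AGRP neurons, and 45.8 ± 9.81 in fed and 73.6 ± 24.0 in FD POMC neurons, against 5.31 to 19.5 TPM for Cry1. The log2 fold change with food deprivation was 0.28 (SE 0.23, adjusted p = 0.543) in AGRP and 0.56 (SE 0.24, adjusted p = 0.325) in POMC neurons. The E-box variant lay in its promoter window, 166 bases before the start. Counting was done without strand, and 149 exon bases of Cry2 overlap the antisense gene D930015M05Rik, so reads there do not show which gene they came from. This overlap, like those given below for Rora and Arntl, was taken from a later gene annotation than the one used for counting. The effect of these overlaps on the counts was not tested.

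RORB and RORA are nuclear receptors that activate Arntl. Rorb (ENSMUSG00000036192; mm10 chr19:18930605-19111196) rose in AGRP neurons and its relative Rora did not pass. The 5 fed AGRP libraries held 26.3, 22.2, 33.7, 18.5 and 15.8 normalized CPM of Rorb. In the 6 FD libraries it ran from 16.0 through a median of 80.2 to 95.3. FD replicate 1, at 16.0, stood among the fed libraries, and the other 5 FD libraries, at 61.5 and above, stood over all of them. Rorb was 3.00-fold higher in FD AGRP neurons (log2 fold change 1.58, SE 0.34, adjusted p = 0.00209). It passed without each library in turn (1.47 to 1.79) and within mice of 46 to 47 days (1.94, adjusted p = 0.044), but not within mice of 51 to 55 days (1.43, adjusted p = 0.0508). In POMC neurons the levels were 74.7, 50.0, 57.4, 49.8 and 57.7 normalized CPM fed and 21.3, 67.0, 41.9, 59.3 and 77.9 FD (log2 fold change -0.11, 95% interval -0.81 to 0.58). The change in AGRP neurons exceeded that in POMC neurons by 1.70 (SE 0.48, adjusted p = 0.0273). This call was lost without AGRP fed replicate 4 or 5, POMC fed replicate 1 or POMC FD replicate 3 (1.59 to 1.62, adjusted p = 0.0508 to 0.0527). It was also lost with scaling by spike-in RNA (3.05, adjusted p = 0.285).

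Fed AGRP neurons were the group with the lowest Rorb level, 2.49-fold below fed POMC neurons (log2 fold change -1.31, SE 0.35, adjusted p = 0.0145), and these groups did not overlap. In FD mice the difference was 0.38 (95% interval -0.29 to 1.05). Rora (ENSMUSG00000032238) gave 0.14 (95% interval -0.36 to 0.63) in AGRP neurons, with fed levels of 46.3 to 77.8 and FD levels of 44.1 to 105 normalized CPM. In POMC neurons it gave 0.81 (SE 0.26), but with an adjusted p of 0.147. Its fed POMC libraries held 36.4, 70.0, 43.4, 33.6 and 37.0 normalized CPM and its FD libraries 73.0, 66.5, 75.8, 69.8 and 101, so that fed replicate 2 alone reached into the FD range. The log2 ratio of Rora to Rorb (TPM plus 1) was 1.05 ± 0.48 in fed AGRP neurons and lay at -0.20 ± 1.02 in FD AGRP, -0.64 ± 0.53 in fed POMC and 0.37 ± 0.65 in FD POMC neurons. Of Rora, 82 exon bases overlap the antisense gene Gm15511.

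None of the 3 activators of the loop passed the test in either cell type. Clock (ENSMUSG00000029238) was the most abundant of the 10 genes in each group. Its mean was 195 ± 25.1 (SD) normalized CPM in fed AGRP, 187 ± 32.2 in FD AGRP, 194 ± 33.1 in fed POMC and 186 ± 32.4 in FD POMC neurons, and every group overlapped the next. The log2 fold change with food deprivation was -0.06 (95% interval -0.38 to 0.27) in AGRP and -0.06 (-0.40 to 0.27) in POMC neurons. Npas2 (ENSMUSG00000026077), the paralog that can replace Clock, was lower and varied widely between mice of a group, from 1.17 to 28.0 normalized CPM in fed POMC libraries alone. Its log2 fold change of 0.47 in AGRP neurons had a 95% interval of -0.81 to 1.75.

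Arntl (ENSMUSG00000055116), the partner that both need, differed in POMC neurons without passing. Fed POMC libraries held 31.4, 25.6, 39.6, 23.3 and 26.8 normalized CPM, and FD libraries 8.84, 22.1, 11.8, 15.6 and 20.7. No FD library reached the lowest fed one, but the log2 fold change of -0.89 (SE 0.42) had an adjusted p of 0.388. Arntl and Per3 were the 2 core clock genes whose fed and FD POMC libraries did not overlap, as was so for 2.35% of all genes. Neither passed the test. In AGRP neurons Arntl was at 3.80 to 29.2 normalized CPM fed and 12.0 to 28.3 FD (log2 fold change 0.16, 95% interval -0.66 to 0.98). Of Arntl, 33 exon bases overlap the antisense gene Gm45355. The plot of fold changes sets the 10 genes beside each other in both cell types.

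**Figure D3:**
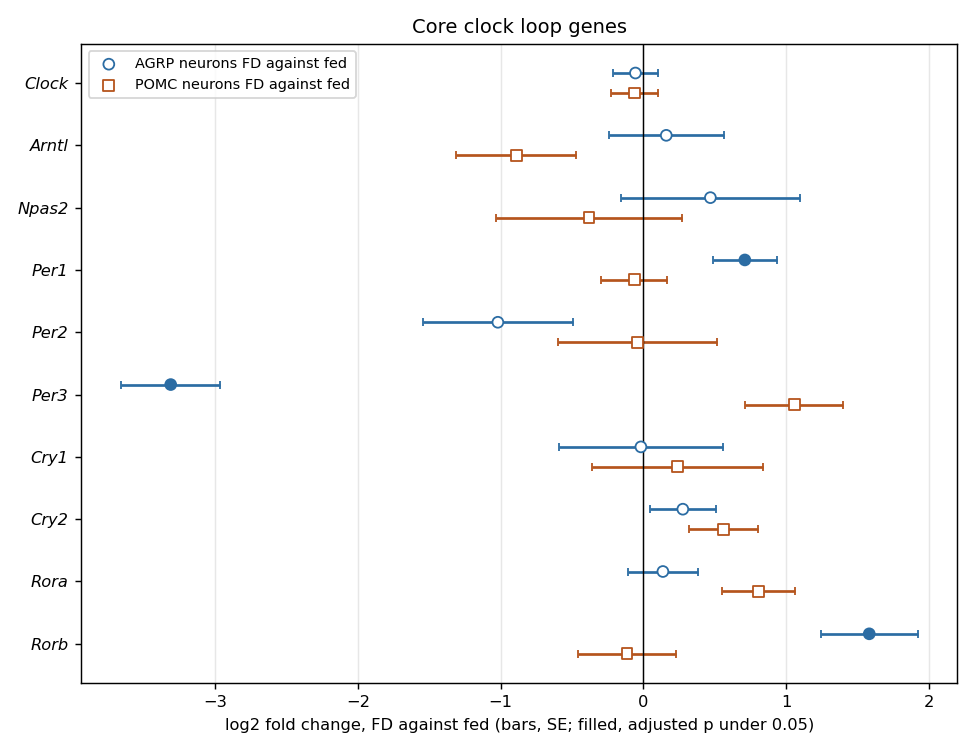
Log2 fold change of FD against fed with its SE for the 10 core clock genes in AGRP (circles) and POMC neurons (squares), filled where the adjusted p was under 0.05. Per3 (-3.31), Per1 (0.71) and Rorb (1.58) are filled in AGRP neurons, and every POMC symbol is open.

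Per length, the order of the genes differed between groups. In fed AGRP neurons the means ran Clock (91.0 TPM), Cry2 (61.4), Per3 (46.7), Per1 (44.4), Per2 (24.8), Arntl (19.0), Rora (18.8), Rorb (8.67), Cry1 (6.39) and Npas2 (5.32). Neighbours in that order overlapped between libraries except Rora and Rorb. In FD AGRP neurons Per3 was last, at 3.99 TPM, Per1 (61.2) stood level with Cry2 (61.4), and Rorb (21.3) came next. The gap between Per1 and Rorb was the single one without overlap. In fed POMC neurons Clock (81.3 TPM), Cry2 (45.8) and Arntl (31.3) led and Per2 (5.04) was last. In FD POMC neurons Per3 (34.9 TPM) followed Clock and Cry2, and Per2 (5.44) was again the last, and all neighbours overlapped in both POMC groups.

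The listed clock output and repressor genes had larger changes in AGRP neurons than the 10 core genes. Their median size without sign was 2.63 against 0.37 on the log2 scale. The lists do not part the loop from the genes it drives. The loop also drives the Per and Cry genes, and Nr1d1 and Nr1d2 act on Arntl. The list of output and repressor genes held 9 that were tested. In AGRP neurons 7 of the 9 fell, 1 rose and 1 did not pass, where 4.43% of all genes were called lower and 5.87% higher. The median log2 fold change of the 9 was -2.55 against -0.02 over all genes. Bhlhe40, a repressor that competes for E-boxes, fell by 4.95 on the log2 scale (SE 0.54, adjusted p = 2.35e-07), from 205 to 329 normalized CPM in fed to 0.354 to 18.6 in FD libraries. Its relative Bhlhe41 fell by 2.96 (SE 0.46, adjusted p = 5.13e-05). The D-box activators fell together: Hlf by 3.14 (SE 0.37, adjusted p = 8.9e-07), Dbp by 2.69 (SE 0.64, adjusted p = 0.00577) and Tef by 1.74 (SE 0.29, adjusted p = 0.000105). The D-box repressor Nfil3 rose, from 2.09 to 9.05 normalized CPM in fed to 21.5 to 51.6 in FD libraries (log2 fold change 2.63, SE 0.54, adjusted p = 0.00133). Nr1d2 fell by 0.96 (SE 0.25, adjusted p = 0.0112). Ciart, a repressor of CLOCK and ARNTL, fell by 2.55 (SE 0.74, adjusted p = 0.0244), a call lost without AGRP fed replicate 2 or FD replicate 2 or 5 (adjusted p = 0.0526 to 0.0786) and with sorted cell number as a covariate (adjusted p = 0.0525). The exception was Nr1d1, at -1.12 (SE 0.38, adjusted p = 0.0606), which passed in 5 of 11 alternatives, among them limma-voom (-1.56, adjusted p = 0.00288) and DESeq2 (-1.13, adjusted p = 0.0306), and without AGRP FD replicate 2 (-1.32, adjusted p = 0.0351) or 6 (-1.49, adjusted p = 0.00975). Limma-voom and DESeq2 thus called all 9 output genes, against 12.8% and 13.5% of all genes.

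**Figure D4:**
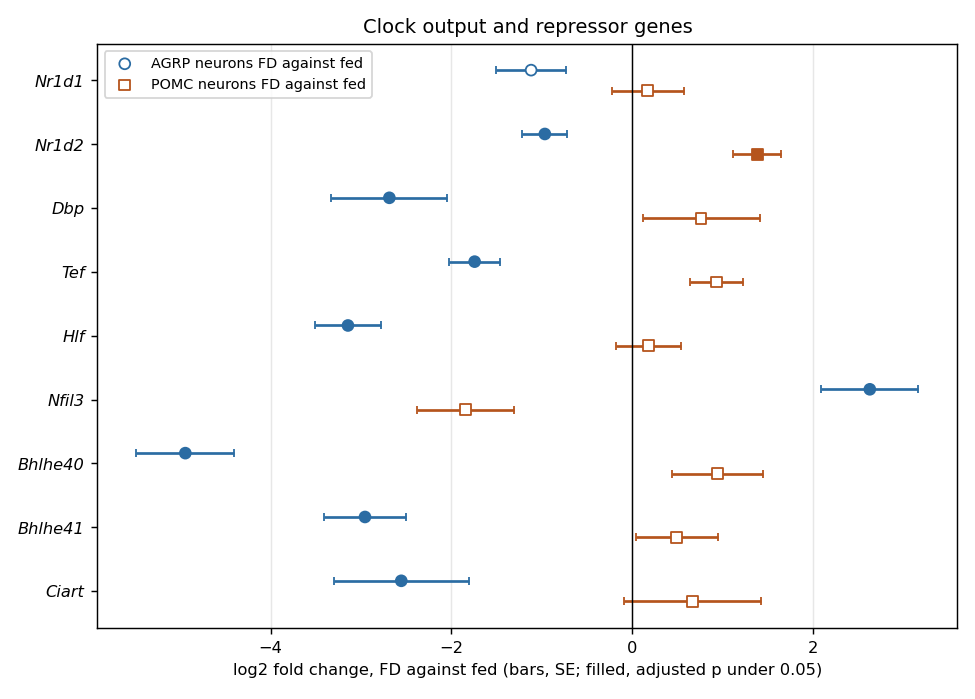
Log2 fold change of FD against fed with its SE for the 9 tested clock output and repressor genes in AGRP (circles) and POMC neurons (squares), filled where the adjusted p was under 0.05. In AGRP neurons the values run from -4.95 (Bhlhe40) to 2.63 (Nfil3), and in POMC neurons only Nr1d2 (1.39) is filled.

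In POMC neurons 1 of the 9 output genes passed, against 0.375% of all genes, and the median log2 fold change of the 9 was 0.67. Nr1d2 was at 37.3 to 76.4 normalized CPM in fed and 108 to 205 in FD libraries (log2 fold change 1.39, SE 0.27, adjusted p = 0.00788), where it fell in AGRP neurons. The call held without each library in turn (1.23 to 1.53) but was lost with spike-in scaling (0.22, adjusted p = 0.842) and within the 1 µl spike-in set (1.50, adjusted p = 0.078). Nfil3, at -1.84 (SE 0.54, adjusted p = 0.112), and Tef, at 0.94 (SE 0.30, adjusted p = 0.151), missed the threshold, and Nfil3 passed with DESeq2 (-1.83, adjusted p = 0.0251). In the test of the difference between the changes, 7 of the 9 passed, against 6.71% of all genes. They were Nr1d2 (-2.35), Dbp (-3.45), Tef (-2.68), Hlf (-3.33), Bhlhe40 (-5.89), Bhlhe41 (-3.45) and Nfil3 (4.48), with adjusted p from 3.66e-06 to 0.0184, and Dbp missed it without AGRP fed replicate 2 (adjusted p = 0.0501). With spike-in scaling Nr1d2 (-0.96), Dbp (-1.99), Tef (-1.50), Hlf (-2.21) and Bhlhe41 (-2.36) missed it. The window of Per3 printed above holds the letters to which Dbp, Tef, Hlf and Nfil3 proteins are known to bind. The transcripts here cannot show binding, and whether these proteins bear on the level of Per3 was not tested.

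Another list held the enzymes that mark and degrade clock proteins. Of 13 casein kinases, F-box proteins and related genes, 0 passed in AGRP or POMC neurons with edgeR, which called 10.3% and 0.375% of all genes. At an unadjusted p under 0.05 there were 3 in AGRP (Csnk2b, Ddb1 and Cul1; 22.3% of all genes) and 0 in POMC neurons (12.2%). In AGRP neurons limma-voom called 1 of the 13, against 12.8% of all genes, and DESeq2 1, against 13.5%, and in POMC neurons both called 0. Their median log2 fold change was 0.16 in AGRP and 0.03 in POMC neurons, with values from -0.03 to 1.08 and from -0.45 to 0.29. Of 13 nuclear partners of the clock, 1 passed in AGRP and 0 in POMC neurons, a share near that of all genes (10.3% and 0.375%). In POMC neurons 1 reached an unadjusted p under 0.05 (Kdm5a), and limma-voom and DESeq2 called 0. The gene called in AGRP neurons was Sfpq, an RNA- and DNA-binding protein that can join PER complexes, at 129 to 170 normalized CPM in fed and 166 to 442 in FD AGRP libraries (log2 fold change 1.05, SE 0.21, adjusted p = 0.000958). It did not pass in mice of 46 to 47 days alone (0.75, adjusted p = 0.156). Limma-voom called 3 partners and DESeq2 2 in AGRP neurons, against 12.8% and 13.5% of all genes. The lowest value was that of Timeless, at -3.43 (adjusted p = 0.198), a gene of low level (0.522 to 5.20 normalized CPM fed, 0 to 0.861 FD). Sfpq (1.11, adjusted p = 0.0196) and the demethylase gene Kdm5a (-0.89, adjusted p = 0.0128) passed in the test of the difference between the changes.

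The 3 genes whose normalized log2 CPM followed each called gene most closely over the 21 libraries were named as a description, out of 8204 genes at over 20 CPM in at least 1 group. The points share 4 groups, so that any difference between groups enters the correlation. For Per3 they were Fat3, a large cadherin (Pearson's r = 0.94), Tef (0.90) and Sgip1, a regulator of endocytosis (0.88), and in AGRP neurons their log2 fold changes were -2.49, -1.74 and -1.05. For Per1 they were Tram2 (0.90), Sox11 (0.87) and Azi2 (0.86). The log2 fold changes of these were 2.51, 1.2 and 0.47 in AGRP neurons, where Per1 gave 0.71. In POMC neurons they were -3.40, 0.16 and 0.07, where Per1 gave -0.06, so Tram2 and Per1 differed there. For Rorb they were Ppp2r2a (0.83), Sdcbp (0.80) and Nmd3 (0.79), a weaker likeness than that of Per3.

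Scaling bears on how these changes are read, and the amounts of spike-in RNA are uncertain. For 6 libraries the labels give 10 µl, which matches neither scheme in the study's methods, and these held 1152518 to 8514459 spike-in counts, against 39097 to 279865 in the others. All values with spike-in scaling rest on the labelled amounts. With spike-in RNA and the number of sorted cells in place of TMM, 1 of the 10 genes passed in AGRP neurons, Per3 (log2 fold change -3.61, adjusted p = 0.00928), and 97 of all genes. Per1 (0.66, adjusted p = 1) and Rorb (1.71, adjusted p = 0.66) kept their size. In POMC neurons this scaling put the median of all genes at -1.11 on the log2 scale, so that Per3 stood at 0.10 as measured and 1.22 above that median. In the test of the difference that median was 1.04, and Per3 gave -3.71 (adjusted p = 0.112). Of the 8 output genes called in AGRP neurons, Bhlhe40 and Hlf passed with this scaling. The plot of the alternatives shows the 4 genes of AGRP neurons that passed in at least 1 fit.

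**Figure D5:**
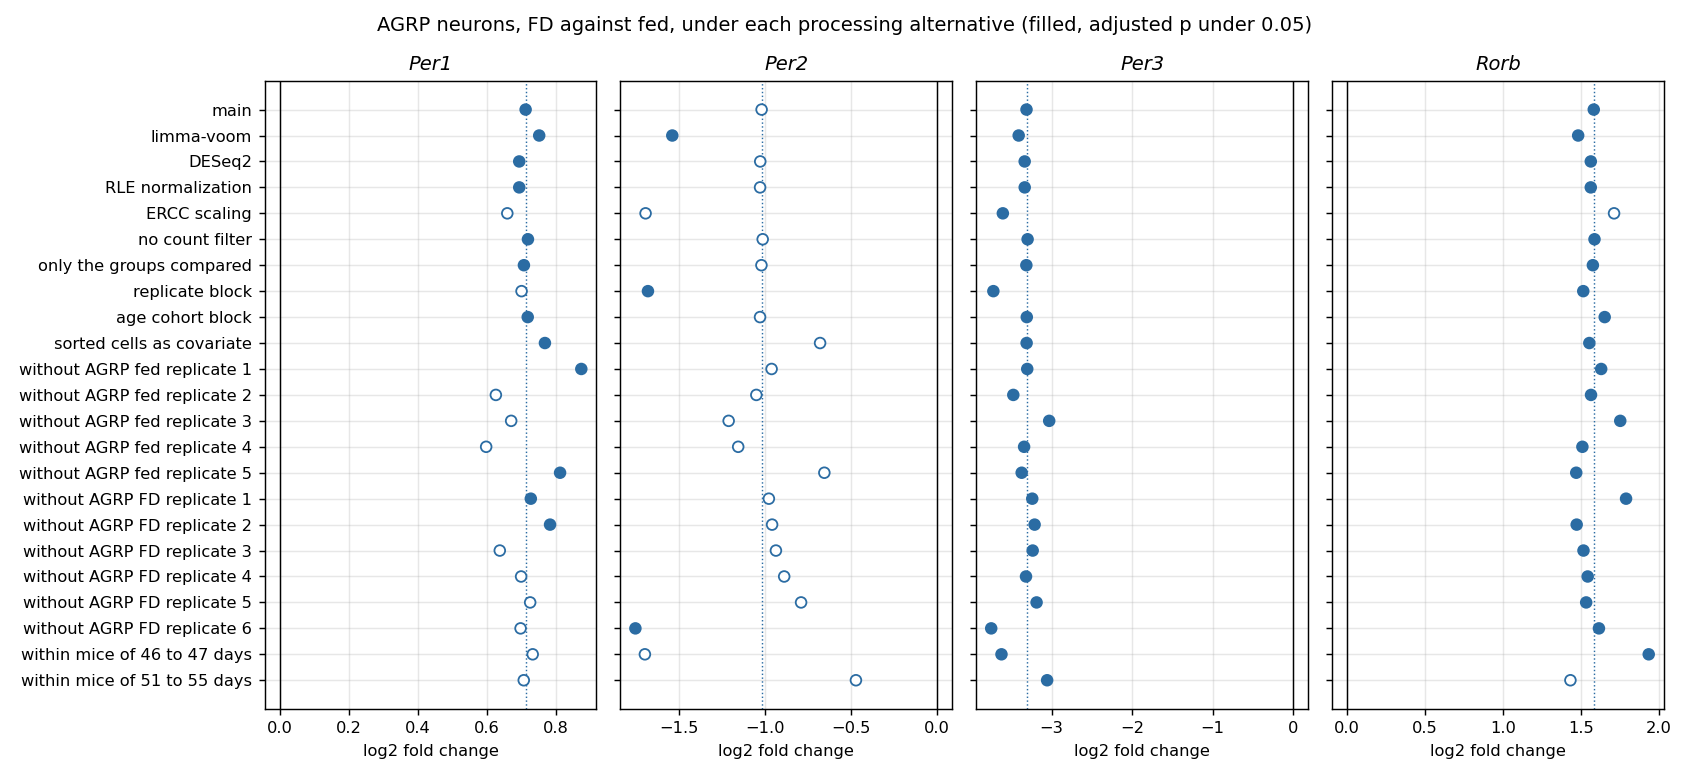
Log2 fold change of FD against fed in AGRP neurons for Per1, Per2, Per3 and Rorb (columns, each with its own axis) under each processing alternative (lines of points, the topmost for the values as reported), filled where the adjusted p was under 0.05. Per3 is filled throughout, Per1 lies between 0.60 and 0.87, and Per2 is filled in 3 of the alternatives.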

How the data were processed

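RNA-Seq was measured in 21 libraries in 4 groups taken from the sample labels. Per the study's methods and the submitters' processing notes, the authors trimmed adaptors with cutadapt 1.7.1, removed abundant sequences with Bowtie2 2.1.0, mapped to mm10 with STAR 2.4.0i and made the deposited counts with HTSeq 0.6.1p1, from unique reads and without strand. For the deposited TPM, the authors divided those counts by exon length. RNA was amplified before sequencing without molecular identifiers, so counts hold copies, and the spread between mice was used as the error. From the counts, TMM factors and 1 quasi-likelihood model with 4 groups were fitted with edgeR 4.0.16 in R 4.3.3 to the 16513 genes with CPM over 1 in at least 3 libraries. The 92 spike-in and 5 summary entries were kept apart. All tests were two-sided, p-values were adjusted by Benjamini-Hochberg over every gene tested, and a call was made at an adjusted p under 0.05. SE is the log2 fold change over the root of F, and 95% intervals use its degrees of freedom. TPM served for levels between genes and for ratios, with no test.

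The alternatives were limma-voom (limma 3.58.1), DESeq2 1.42.0, RLE normalization, spike-in scaling by sorted cells, no count filter, the compared groups alone, replicate number or age cohort (under 50 days or older) as a block, a covariate of sorted cell number, each library left out in turn, fits within age cohort or within the 1 µl spike-in set, and the study's criteria for differential expression (a log2 change beyond 1 in size, with a mean CPM in some group above 20). The fits were tested on simulated data. The genes, lists and comparisons were chosen with earlier results of these data known. Named from the lists were the genes passing with food deprivation in either cell type, and, after their values were seen, the exceptions named beside a count, the genes passing in the test of the difference and the Per TPM shares. Promoters came from RefSeq. Each count and TPM column was matched to its sample by name.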

Additional observations from a re-analysis of the deposited data

Results flagged for a closer look

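Gaps between libraries were examined for the 10 core clock genes in the 4 groups (40 gene and group pairs) with Dixon's criterion at 95%. Its rate of about 1 in 20 by chance holds for normally distributed values. The gaps here were taken on normalized CPM without a log, so the number of pairs cannot be set against that rate. The criterion marked 6 pairs, in each of which the highest library stood apart. In AGRP FD replicate 6, Per2 was at 61.1 normalized CPM where the next library had 17.4, and Per3 at 18.6 where the next had 8.12. In AGRP FD replicate 2, Clock was at 249 where the next library had 186. In AGRP fed replicate 2, Npas2 was at 12.6 where the next had 6.02. Rora was high in POMC fed replicate 2, at 70.0 against 43.4, and in POMC FD replicate 5, at 101 against 75.8.

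The change with food deprivation differed between AGRP and POMC neurons, by the interaction test, in 11 of the members and listed genes. This test called 2 of the 10 core genes, 7 of the 9 output genes and 2 of the 13 nuclear partners. It called 0 of the 13 turnover genes, and 6.71% of all genes. Among the core genes these were Per3, with a difference of -4.37 on the log2 scale, and Rorb, with 1.70. Among the output genes the differences were -2.35 for Nr1d2, -3.45 for Dbp, -2.68 for Tef, -3.33 for Hlf, 4.48 for Nfil3, -5.89 for Bhlhe40 and -3.45 for Bhlhe41. Among the nuclear partners they were 1.11 for Sfpq and -0.89 for Kdm5a.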

How the results depend on the processing

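Over 1719 values recomputed for single genes, 1564 kept their direction and their side of the threshold, 64 lost a call, 19 gained one and 72 changed sign. Of those 72, 1 had been called: Kdm5a in the test of the difference, at 0.12 with spike-in scaling, where it stood at -0.59 in POMC neurons. That scaling also left 1 core clock gene passing in AGRP neurons (Per3), 0 between fed cell types, 1 between FD cell types (Per1) and 0 in the test of the difference. Of all genes it called 97 in AGRP neurons against 1700, 13 in POMC neurons against 62, 297 between fed cell types against 1250, 1117 between FD cell types against 3064 and 119 in the test of the difference against 1108. Its amounts are uncertain, since 10 µl in 6 libraries matches neither scheme in the methods. It moved the median of all genes on the log2 scale to -1.11 in POMC neurons, 1.10 between FD cell types and 1.04 in the test of the difference, and limma-voom moved it to -0.13 in AGRP neurons. The cause was not tested. With DESeq2, 382 genes passed in POMC neurons. With edgeR, which called 62 there, 40 passed without POMC FD replicate 3 and 110 without POMC fed replicate 3. Fits with fewer mice called 374 (46 to 47 days, 2 fed and 3 FD) and 980 (51 to 55 days, 3 and 3) in AGRP neurons and 32 within the 1 µl set of POMC libraries (3 and 3). In the younger mice Nr1d2, Dbp, Tef and Nfil3 missed the threshold, and in the older ones Dbp and Ciart. Leaving out 1 library left 1 to 2 core clock genes in the test of the difference.

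The replicate numbers join different mice, and the labels do not say what same-numbered libraries share. Each gene's group mean was taken from its log2 level before libraries were compared. What remained correlated, between same-numbered fed and FD libraries, at -0.16 to 0.0026 in AGRP and -0.11 to 0.057 in POMC neurons. By that measure 0 of 5 fed libraries in either cell type was most like its own number. These values cannot show what the numbers mean. With replicate number as a block, which leaves out AGRP FD replicate 6, the only library of its number, 3 core genes passed in AGRP neurons (Per2 at -1.68, against -1.75 without that library, Per3 at -3.73, against -3.75, and Rorb), 0 in POMC neurons, 3 and 3 between cell types and 2 in the test of the difference, and Cry2 between FD cell types changed sign (0.11).

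The other changes of sign were in genes without a call. With spike-in scaling they were, in POMC neurons, Cry1 (-0.91), Cry2 (-0.43), Rora (-0.48) and Tef (-0.18), between FD cell types Npas2 (0.71), Cry2 (1.02) and Rora (0.92), and in the test of the difference Cry1 (0.57), Cry2 (0.82) and Rora (0.60). Within AGRP mice of 51 to 55 days they were Npas2 (-0.41), Cry1 (0.076) and Rora (-0.17), and within the 1 µl spike-in set of POMC libraries Npas2 (0.54), Per1 (0.046) and Per2 (0.30). With sorted cells as a covariate they were Cry1 in AGRP neurons (0.059), Per2 in POMC neurons (0.056) and Clock in the test of the difference (-0.025). With age cohort as a block they were Clock between fed (-0.074) and FD cell types (-0.086) and in the test of the difference (-0.013), and Arntl between FD cell types (-0.12). Clock between fed cell types gave -0.0035 with limma-voom and -0.0040 without the count filter, and in the test of the difference -0.017 with DESeq2 and -0.017 with RLE.

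Leaving out 1 library moved across 0 these ranges. In AGRP neurons they were Arntl (-0.092 to 0.49), Cry1 (-0.33 to 0.20) and Rora (-0.043 to 0.25). In POMC neurons they were Clock (-0.14 to 0.027), Npas2 (-0.68 to 0.055), Per1 (-0.20 to 0.11), Per2 (-0.31 to 0.26), Cry1 (-0.071 to 0.46) and Rorb (-0.29 to 0.087). Between fed cell types it was Clock (-0.077 to 0.083), and between FD cell types Clock (-0.086 to 0.077), Npas2 (-0.66 to 0.036) and Cry2 (-0.22 to 0.061). In the test of the difference they were Clock (-0.090 to 0.089) and Cry1 (-0.57 to 0.053).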
